A study of Mus musculus with 9 samples.

Results

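The genes described here make, inactivate or oxidise estrogens, or belong to the aryl hydrocarbon receptor pathway that controls estrogen-oxidising enzymes. In all, 9 genes were chosen by symbol: *Hsd17b4*, *Hsd17b11*, *Hsd17b12*, *Sts*, *Sult1a1*, *Cyp1a1*, *Cyp1b1*, *Ahr* and *Ahrr*. Of these, 8 were found among the 23332 entries of the expression table, and *Sts*, which encodes steroid sulfatase, was not analysed here. Levels are in FPKM, the read density of a gene scaled for transcript length and for library size. Of the 8 genes, 5 had at least 1 FPKM in at least 3 samples and were tested, and *Sult1a1*, *Cyp1a1* and *Ahrr* fell short of that filter. The widest difference between treatments among the tested genes was in *Hsd17b11*, which estradiol-treated samples held at 2.83 to 3.00 times the level of the solvent control within the replicate pairs, whereas *Ahr* and its target *Cyp1b1* differed more between replicate numbers than between treatments.

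Enzymes of the *Hsd17b* family oxidise or reduce steroids at the carbon that distinguishes estradiol from estrone, and several of them also, or mainly, handle fatty acids. The aryl hydrocarbon receptor is a ligand-activated transcription factor that pairs with Arnt, binds the dioxin response element and induces *Cyp1a1* and *Cyp1b1*, whose products hydroxylate estradiol to catechol estrogens. Conjugation by sulfotransferases such as Sult1a1 inactivates estrogens, and steroid sulfatase reverses it.

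Poly(A) RNA came from FVB MOE cells, a mouse oviductal epithelial line that is 1 clone of secretory cells from the FVB strain. Stock cultures of all groups were kept with estradiol in the medium, and all were then deprived of hormone for 48 h in stripped medium, renewed after 24 h. Cells were next treated for 24 h with 0.1% DMSO as the solvent control, with 1 nM estradiol (E2), or with 100 nM 4-hydroxytamoxifen (4OHT), a selective estrogen receptor modulator, so that the agents were compared at different doses. Each condition had 3 samples, numbered 1 to 3 in the labels, and nothing in the labels says that they came from separate cultures, so the p-values below measure the spread between these samples. A value is an average over the culture, in which fewer expressing cells and less RNA per cell cannot be told apart.

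FPKM totals ran from 522517 to 588640 per sample, and relative depth, recovered from the smallest steps in the values, ran from 0.820 to 1.18 times that of DMSO replicate 1. The secretory markers *Krt7*, *Krt8*, *Krt18* and *Pax8* were abundant, with a summed level of the 7 listed genes of 1260 to 1391 FPKM in DMSO, 2154 to 2319 in E2 and 1341 to 1487 in 4OHT, but the epithelial adhesion genes *Epcam* (at most 0.138 FPKM) and *Cdh1* (at most 0.422 FPKM) were nearly absent. The remaining gene of that list, *Ovgp1*, was low and did not follow the sum. It was at 1.99 to 2.61 FPKM in DMSO, 1.44 to 2.01 in E2 and 1.47 to 1.92 in 4OHT. The ciliated-cell factor *Foxj1* was detected at 8.95 to 15.9 FPKM, while the ciliary gene *Tekt1* stayed at or below 0.188 FPKM. Markers of stroma, immune cells and endothelium were at most 6.90, 0.233 and 1.42 FPKM in sum. The estrogen-responsive genes *Pgr* and *Greb1* were highest in E2 within each replicate number, but DMSO replicate 1 already held 9.58 FPKM of *Pgr* against 1.36 and 1.16 in the other DMSO samples, and 14.3 FPKM of *Greb1* against 2.58 and 2.30. Replicate 1 thus stood apart in these genes, and the calls of the members are also given without it.

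*Hsd17b11* encodes a short-chain dehydrogenase that sits on lipid droplets and can oxidise androgens and related steroids. The gene lies at chr5:103989762-104021919 on the minus strand (mm10), and its promoter window of 250 bases before to 50 after the RefSeq start (GRCm38.p6) is shown because this gene was called in E2 in each fit that used replicate number as a block. The window is chr5:104021747-104022046, minus strand, written 5′ to 3′, with the single match to GCGTG, the core of the dioxin response element, in capitals.
Hsd17b11: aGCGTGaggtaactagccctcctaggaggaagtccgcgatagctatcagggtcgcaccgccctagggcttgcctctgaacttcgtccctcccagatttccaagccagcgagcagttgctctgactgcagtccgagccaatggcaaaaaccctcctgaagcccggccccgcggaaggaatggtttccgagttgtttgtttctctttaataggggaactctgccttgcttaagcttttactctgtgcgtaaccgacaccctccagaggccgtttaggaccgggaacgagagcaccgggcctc
The palindromic estrogen response element (GGTCA and TGACC separated by any 3 bases) and the single half-site GGTCA had no match in this window on either strand. Among 32851 promoter windows of the same length, GCGTG was present in 32.4%, GGTCA in 40.5% and the palindrome in 0.0700%, where GGTCA matches include those inside the palindrome.

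The *Hsd17b11* level in DMSO replicates 1, 2 and 3 was 26.4, 13.8 and 14.1 FPKM. In E2 it was 75.4, 41.3 and 39.8 FPKM. In 4OHT it was 42.9, 17.5 and 16.1 FPKM. All E2 samples exceeded all DMSO samples, whereas the 4OHT samples overlapped both other groups, since 4OHT replicate 1 exceeded E2 replicates 2 and 3. Replicate 1 was the highest of its group in each condition. Group means were 18.1 ± 7.20 FPKM in DMSO, 52.2 ± 20.1 in E2 and 25.5 ± 15.1 in 4OHT (SD, n = 3).

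**Figure D1:**
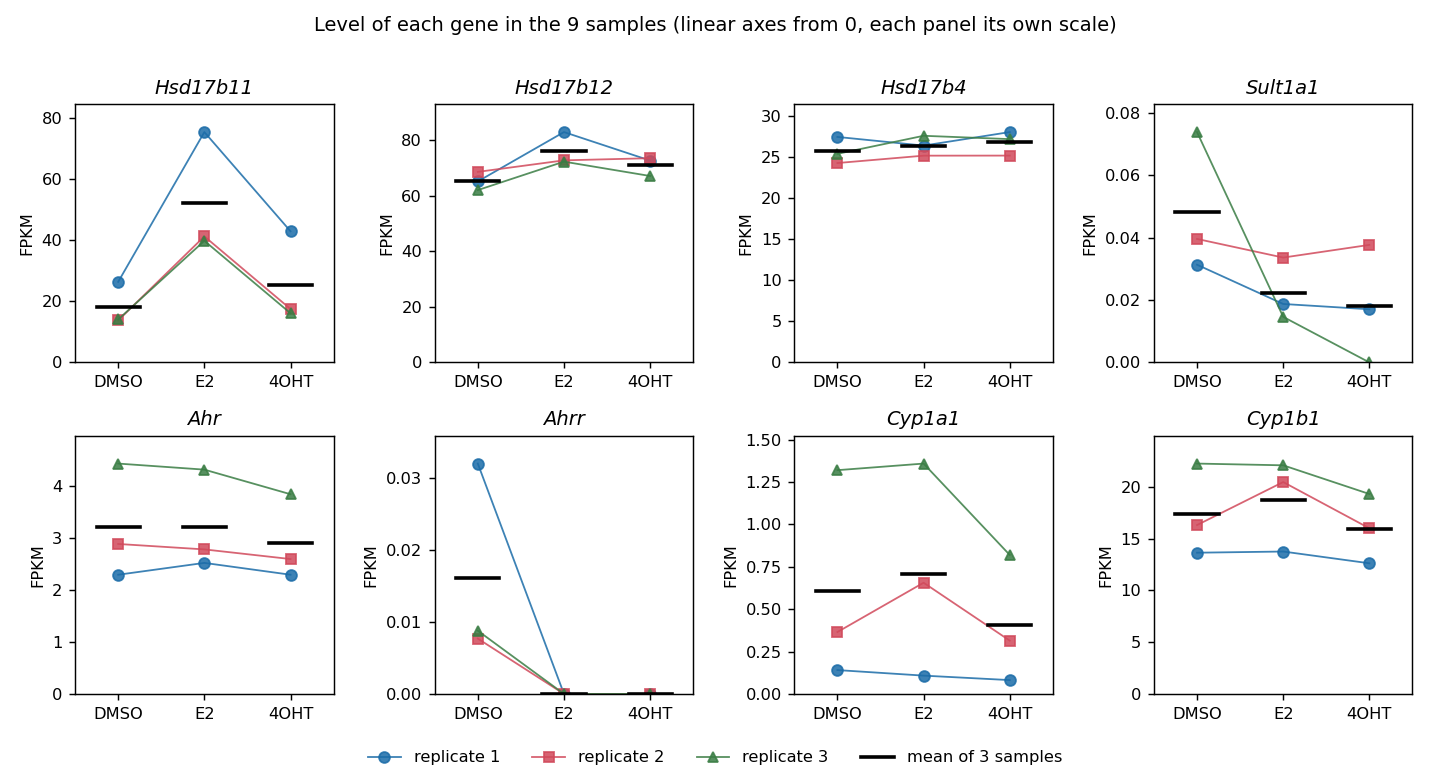
FPKM of the 8 genes with an entry (vertical axes, linear from 0, each panel its own scale) in DMSO, E2 and 4OHT; coloured points joined by lines are samples with the same replicate number and black bars are means of 3 samples. *Hsd17b11* was higher in E2 than in DMSO in each of the 3 replicate pairs, at 75.4 against 26.4 FPKM in replicate 1, while *Ahr*, *Cyp1a1* and *Cyp1b1* were highest in replicate 3 of each condition.

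Within replicate pairs the E2 to DMSO ratio of *Hsd17b11* was 2.86, 3.00 and 2.83, so the response varied little although the starting level differed by 1.92 times between DMSO samples. The estimated log2 fold change of FPKM + 1 was 1.48, and it did not pass in the fit without a replicate term (SE 0.43, limma adjusted p = 0.276). With replicate number as a block the same estimate had an SE of 0.10 and a 95% interval of 1.24 to 1.72, and *Hsd17b11* rose in E2 (limma adjusted p = 0.00108). Without replicate 1 of every condition it also passed with no block, at a log2 fold change of 1.48 (limma adjusted p = 0.00181). That was the only 1 of 19 fits with no block in which *Hsd17b11* passed, and the highest limma adjusted p among them was 0.915. Some cell markers also differed in the same samples, besides the secretory sum given above. The summed level of the 4 ciliated-cell genes with an entry was 18.0 to 20.6 FPKM in DMSO and 13.8 to 17.7 in E2, a difference that lay in *Foxj1* (13.6 to 15.9 in DMSO, and down to 8.95 in E2 with no overlap), while *Rsph1* was higher in E2 (2.98 to 3.21 and 3.52 to 3.86) and *Ccdc39* and *Tekt1* overlapped. Of 4 endothelial genes, *Kdr* was at 0.445 to 0.711 FPKM in DMSO and 1.01 to 1.28 in E2, and *Pecam1*, *Cdh5* and *Tek* were at most 0.100 FPKM. The part of these markers in the *Hsd17b11* result was not tested.

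In 4OHT, *Hsd17b11* was 1.63, 1.27 and 1.15 times DMSO in pairs 1, 2 and 3. It thus lay above DMSO in 3 of 3 pairs, a pattern that 30.2% of all tested genes showed in this comparison, against 28.1% for E2 over DMSO and 24.3% for E2 over 4OHT. The log2 fold change of 0.40 did not pass with or without the block (95% interval with the block 0.15 to 0.64, limma adjusted p = 0.376 and 1.00). Its unadjusted p with the block was 0.00706 (limma), and 13.1% of all tested genes had one under 0.05 in that fit. After adjustment 0% of all tested genes passed in this comparison, with or without the block. The paper, which tested the same samples with Cuffdiff, lists *Hsd17b11* among the genes significantly raised by 4OHT, so the 2 methods differ in the call. The size of the difference was similar, since the log2 ratio of the group means here, 0.50, was close to the paper's log2 fold change. Against 4OHT, E2 samples held 1.76, 2.36 and 2.47 times as much *Hsd17b11*. This difference, a log2 fold change of 1.08 (95% interval 0.84 to 1.33), passed with the block (limma adjusted p = 0.00371) and did not without it (limma adjusted p = 0.408). Without replicate 1 of every condition it was 1.23 and passed with no block (limma adjusted p = 0.00621). Here too that was the only 1 of 19 fits with no block that passed, with limma adjusted p up to 0.918 among them. The neighbouring paralog *Hsd17b13*, another lipid droplet enzyme whose gene lies 12351 bases away on the same strand, was at 0.174 to 0.321 FPKM in all samples, and it was looked up after its values were seen.

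*Hsd17b12* encodes the ketoacyl reductase of the microsomal fatty acid elongation cycle, and it can also reduce estrone. It lies at chr2:94032689-94157964 on the minus strand (mm10) and was the most abundant gene of the group in each condition. Its level was 65.1, 68.5 and 62.0 FPKM in DMSO, 82.8, 72.7 and 72.2 FPKM in E2, and 72.6, 73.4 and 67.0 FPKM in 4OHT. The E2 samples all exceeded the DMSO samples, by 1.27, 1.06 and 1.17 times within pairs, and overlapped the 4OHT samples. The log2 fold change for E2 against DMSO was 0.21 (95% interval with the block 0.09 to 0.34), which passed with the block (limma adjusted p = 0.0399) and did not without it (limma adjusted p = 0.334). This call was fragile, since it was lost in 8 of the 9 fits with the block that left out 1 sample, with limma adjusted p from 0.0200 to 0.141 across them, and was kept only without E2 replicate 2. Without replicate 1 of every condition and with no block the log2 fold change was 0.15 (limma adjusted p = 0.507). In 4OHT, *Hsd17b12* was higher than DMSO in 3 of 3 pairs but the log2 fold change of 0.12 did not pass (limma adjusted p = 0.382 with the block), nor did the difference of 0.09 between E2 and 4OHT (limma adjusted p = 0.231 with the block).

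*Hsd17b4*, on chromosome 18, encodes the peroxisomal multifunctional enzyme that shortens very long and branched fatty acids and can oxidise estradiol to estrone. It was the steadiest gene of the group, at 27.4, 24.2 and 25.4 FPKM in DMSO, 26.4, 25.1 and 27.6 FPKM in E2, and 28.0, 25.1 and 27.1 FPKM in 4OHT. The 3 groups overlapped throughout. With the block, the 95% interval of its log2 fold change was -0.05 to 0.13 for E2 against DMSO, -0.03 to 0.15 for 4OHT against DMSO and -0.11 to 0.07 for E2 against 4OHT, and none passed (limma adjusted p = 0.530, 0.490 and 0.712).

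**Figure D2:**
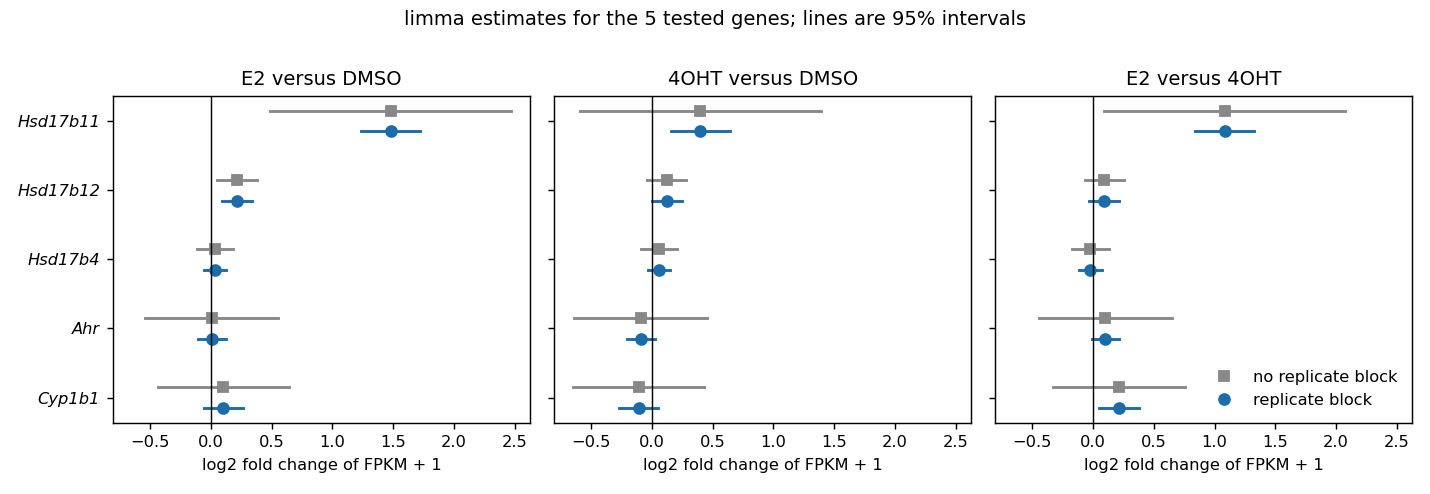
log2 fold change of FPKM + 1 (horizontal axis) for the 5 tested genes in the 3 comparisons; squares are limma fits without and circles with replicate number as a block, and lines are 95% intervals. The E2 against DMSO estimate of *Hsd17b11* was 1.48 in both fits, with an interval of 1.24 to 1.72 when the block was used.

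*Sult1a1* encodes the phenol sulfotransferase that adds sulfate to simple phenols and estrogens, and it lies at chr7:126672865-126676432 on the minus strand (mm10), where 61 bases overlap *Sgf29* on the other strand. It was close to absent, at 0.0313, 0.0395 and 0.0738 FPKM in DMSO, 0.0187, 0.0336 and 0.0146 FPKM in E2, and 0.0170, 0.0376 and 0 FPKM in 4OHT. Its values were whole multiples of 1 step per sample within 1.09%, which corresponds to 10 reads over the DMSO samples, 4 over the E2 samples and 3 over the 4OHT samples. With so few reads a difference between treatments could not be settled. With no filter and no block, the log2 fold change of FPKM + 1 was -0.04 for E2 and for 4OHT against DMSO. Neither passed after adjustment (limma unadjusted p = 0.0975 and 0.0610).

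Among the genes tested, the members called were 0 of 5 in each comparison in the fit without the block, against 0.512% of the 11339 tested genes for E2 against DMSO, 0% for 4OHT against DMSO and 0.159% for E2 against 4OHT. At an unadjusted p under 0.05 those shares were 10.9%, 2.76% and 11.5%. Under that rule *Hsd17b11* (limma unadjusted p = 0.00890) and *Hsd17b12* (limma unadjusted p = 0.0157) passed for E2 against DMSO. For E2 against 4OHT only *Hsd17b11* passed it (limma unadjusted p = 0.0360), and for 4OHT against DMSO no member did. With the block, 2 of 5 were called for E2 against DMSO, against 15.0% of all tested genes, 0 of 5 for 4OHT against DMSO, against 0%, and 1 of 5 for E2 against 4OHT, against 16.2%. The called members were all higher in E2, as were 10.4% of all tested genes against DMSO and 8.63% against 4OHT. Groups did not overlap for 2 of 5 in E2 against DMSO (15.2% of all tested genes), and overlapped for each of the 5 in 4OHT against DMSO (7.94% not overlapping) and in E2 against 4OHT (18.3%). With so few members these counts were read only as a description. The comparisons with DMSO share the DMSO samples, and those with E2 share the E2 samples.

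*Ahr*, the receptor itself, lies at chr12:35497974-35535038 on the minus strand (mm10), where 618 bases overlap a noncoding gene on the other strand. Its level was 2.30, 2.89 and 4.44 FPKM in DMSO replicates 1, 2 and 3, 2.52, 2.78 and 4.32 FPKM in E2, and 2.30, 2.60 and 3.85 FPKM in 4OHT. The order of the replicates was the same in each condition, and the highest sample of a condition was 1.68 to 1.93 times the lowest. E2 and DMSO means were equal to within 0.0673%, with a 95% interval with the block of -0.11 to 0.12 for the log2 fold change. No *Ahr* comparison passed, with limma adjusted p = 0.918, 0.421 and 0.170 with the block for E2 against DMSO, 4OHT against DMSO and E2 against 4OHT.

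*Cyp1b1*, on chr17:79701537-79715061, minus strand, and *Cyp1a1*, on chr9:57687928-57703824, plus strand (mm10), encode the P450 enzymes that hydroxylate estradiol, *Cyp1b1* mainly outside the liver. *Ahrr*, on chr13:74211118-74292331, minus strand, encodes the repressor that competes with the receptor for Arnt. Their promoter windows (RefSeq, GRCm38.p6, 250 bases before to 50 after the start) are shown because all are known targets of the receptor and yet stood at very different levels in these cells. They are chr17:79715012-79715311 (minus), chr9:57697363-57697662 (plus) and chr13:74292282-74292581 (minus), with GCGTG or its reverse complement CACGC in capitals.
Cyp1b1: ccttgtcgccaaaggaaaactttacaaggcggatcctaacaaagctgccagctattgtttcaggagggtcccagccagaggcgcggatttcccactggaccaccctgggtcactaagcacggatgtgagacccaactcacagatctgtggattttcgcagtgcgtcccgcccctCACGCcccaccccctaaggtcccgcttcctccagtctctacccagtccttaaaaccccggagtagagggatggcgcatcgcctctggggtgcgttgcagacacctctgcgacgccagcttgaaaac
Cyp1a1: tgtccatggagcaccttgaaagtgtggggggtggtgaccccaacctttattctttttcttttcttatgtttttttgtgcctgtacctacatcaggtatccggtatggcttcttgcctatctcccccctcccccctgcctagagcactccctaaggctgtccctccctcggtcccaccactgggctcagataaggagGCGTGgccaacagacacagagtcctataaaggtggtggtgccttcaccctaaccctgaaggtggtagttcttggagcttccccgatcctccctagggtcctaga
Ahrr: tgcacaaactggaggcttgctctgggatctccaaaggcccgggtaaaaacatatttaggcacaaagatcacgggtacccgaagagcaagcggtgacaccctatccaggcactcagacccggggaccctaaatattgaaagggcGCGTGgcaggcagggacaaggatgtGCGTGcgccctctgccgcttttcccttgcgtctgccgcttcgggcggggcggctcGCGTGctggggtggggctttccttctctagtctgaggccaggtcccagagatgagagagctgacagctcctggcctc
The core occurred 1 time in the *Cyp1b1* window, 1 time in the *Cyp1a1* window and 3 times in the *Ahrr* window. The longer form TNGCGTG, which contains the core, occurred only in the *Ahrr* window of the 6 members with a window, 1 time, and in 5.07% of all windows. *Hsd17b12* and *Sult1a1* had no match to the core. GGTCA occurred 1 time each in the *Cyp1a1* and *Cyp1b1* windows. These matches describe letters only.

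*Cyp1b1* was well expressed, at 13.6, 16.3 and 22.3 FPKM in DMSO, 13.8, 20.5 and 22.1 FPKM in E2, and 12.6, 16.0 and 19.3 FPKM in 4OHT. As with *Ahr*, replicate 1 was the lowest and replicate 3 the highest in each condition, and the groups overlapped. E2 samples held 1.09, 1.28 and 1.14 times the 4OHT level within pairs. That difference, a log2 fold change of 0.21 (95% interval with the block 0.05 to 0.37), did not pass (limma adjusted p = 0.0759 with the block and 0.702 without). It passed in 1 of 12 fits with the block, the one that set listed zeros of otherwise expressed genes as missing (limma adjusted p = 0.0468). E2 against DMSO (log2 fold change 0.10) and 4OHT against DMSO (log2 fold change -0.11) did not pass either (limma adjusted p = 0.324 and 0.474 with the block).

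*Cyp1a1* was far lower, at 0.141, 0.365 and 1.32 FPKM in DMSO, 0.108, 0.656 and 1.36 FPKM in E2, and 0.0815, 0.314 and 0.819 FPKM in 4OHT. Replicate 3 exceeded replicate 1 by 9.39 times in DMSO, 12.6 times in E2 and 10.1 times in 4OHT, a far wider gap than any between treatments. Since only 2 samples reached 1 FPKM, the gene was not in the filtered fit. Within pairs its E2 to DMSO ratio was 0.767, 1.80 and 1.03. In 4OHT it lay below DMSO in 3 of 3 pairs (0.580, 0.861 and 0.621), as did 15.6% of all tested genes. In E2 it lay above 4OHT in 3 of 3 pairs (1.32, 2.09 and 1.66), as did 24.3%. With no filter and no block its log2 fold change of FPKM + 1 was 0.09 for E2 against DMSO (SE 0.36, limma adjusted p = 0.972). For E2 against 4OHT it was 0.25 (limma adjusted p = 0.839). This scale understates changes at such low levels. The sister gene *Cyp1a2*, whose GENCODE interval lies 4224 bases from that of *Cyp1a1* on the other strand, was at most 0.107 FPKM. The RefSeq start used for the *Cyp1a1* window above lies inside the GENCODE interval of *Cyp1a1*, farther from *Cyp1a2*.

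*Ahrr* was at the edge of detection, at 0.0320, 0.00770 and 0.00879 FPKM in DMSO and listed at 0 in the 6 E2 and 4OHT samples. The DMSO values were whole multiples of 1 step within 1.49%, which corresponds to 7, 2 and 2 reads, or 11 reads in all against 0 over the E2 samples and 0 over the 4OHT samples. DMSO replicate 1 supplied 7 of the 11 reads. A count of 0 in a sample allows up to 3 reads, more than replicates 2 and 3 of DMSO held, so no fold is given. These are counting limits only, and reads without molecular identifiers are not independent molecules. With no filter and no block, the *Ahrr* log2 fold change of FPKM + 1 was -0.02 for E2 and for 4OHT against DMSO. The limma unadjusted p was 0.0458 in each, and neither passed after adjustment (limma adjusted p = 0.527 for E2). The zeros of *Ahrr* and *Sult1a1* were those of genes near 0 in each condition, and none of the 5 tested members was listed at 0 in any sample.

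The spread of *Ahr* over the 9 samples lay mostly with replicate number. On the log2(FPKM + 1) scale, 95.7% of its sum of squares was between replicate numbers and 2.86% between conditions, and for *Cyp1b1* the shares were 85.5% and 9.61%. Over all tested genes the median shares were 50.8% and 26.5%. *Hsd17b11* and *Hsd17b12* had the reverse order, with 61.8% and 61.0% between conditions and 36.7% and 22.6% between replicate numbers. For *Hsd17b4*, which hardly varied, 67.9% lay between replicate numbers.

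**Figure D3:**
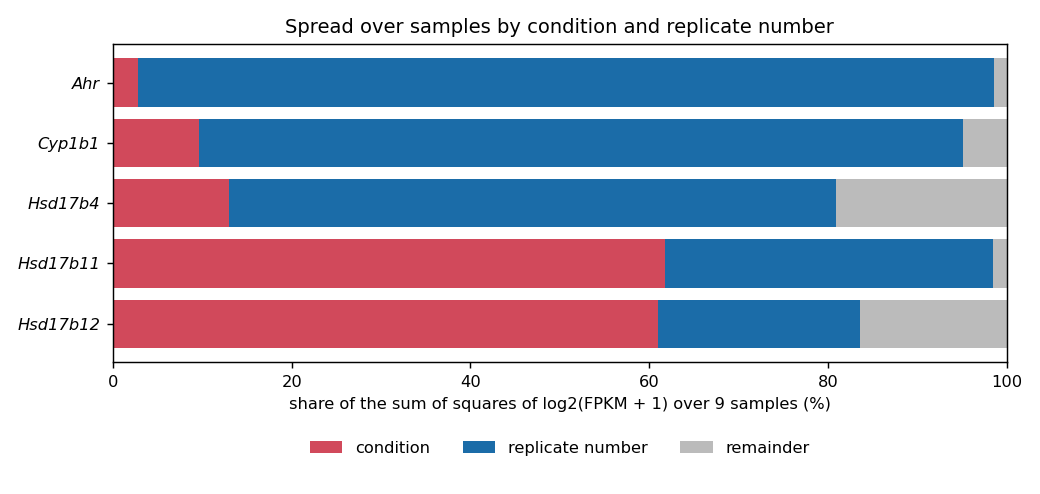
Share of the sum of squares of log2(FPKM + 1) over 9 samples (horizontal axis, %) that lay between conditions, between replicate numbers and in the remainder, for the 5 tested genes. Replicate number held 95.7% for *Ahr* and 85.5% for *Cyp1b1*, and condition held 61.8% for *Hsd17b11*.

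In the order of mean FPKM, *Hsd17b12* came first in DMSO, followed by *Hsd17b4*, *Hsd17b11* and *Cyp1b1*, whose ranges overlapped from one to the next, then by *Ahr*, *Cyp1a1*, *Sult1a1* and *Ahrr*. The last pair overlapped, and the other neighbours were apart. In E2, *Hsd17b11* stood second with a range overlapping that of *Hsd17b12* and apart from that of *Hsd17b4*. In 4OHT the order and overlaps were those of DMSO.

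The genes with the most similar profile to each tested member were ranked by Pearson r of log2(FPKM + 1) over the same 9 samples, among 11093 other tested genes with no listed 0. For *Hsd17b11* these were *Myh14* (0.987), *Midn* (0.984) and *Mboat2* (0.984), and for *Hsd17b12* they were *Bzw2* (0.981), *Mdp1* (0.980) and *Mboat1* (0.972). *Mboat2* ran from 9.12 to 16.4 FPKM in DMSO and from 17.9 to 31.8 FPKM in E2, with replicate 1 the highest of each condition as for *Hsd17b11*. For *Ahr* they were *Igfbp5* (0.977), *Fem1b* (0.977) and *Thbs1* (0.974), for *Cyp1b1* *Ankrd42* (0.985), *Plxna3* (0.972) and *Myo5c* (0.972), and for *Hsd17b4* *Zbtb24* (0.956), *Pex19* (0.955) and *Btf3l4* (0.950). *Thbs1*, the adhesion protein thrombospondin, reached 405, 338 and 358 FPKM in replicate 3 of DMSO, E2 and 4OHT against 231, 250 and 221 in replicate 1. Between members, r was 0.882 for *Ahr* and *Cyp1b1* and 0.776 for *Hsd17b11* and *Hsd17b12*. These correlations describe 9 samples that share treatments and replicate numbers.

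The rest of each pathway was followed through 10 lists with 109 entries, of which 73 were tested. Without the block none was called in any comparison, and with it 13 were called higher and 1 lower for E2 against DMSO (19.2% of those tested against 15.0% of all tested genes), 0 for 4OHT against DMSO, and 9 higher and 2 lower for E2 against 4OHT (15.1% against 16.2%). All calls named below are with the block and were absent without it. The calls for E2 against DMSO dropped to 3 without DMSO replicate 3, to 5 without DMSO replicate 2 or E2 replicate 3, and to 8 without E2 replicate 2.

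Of the other *Hsd17b* genes, 2 of 8 with an entry were tested and both were called higher in E2 than in DMSO, as were 10.4% of all tested genes. With so few entries this count is only a description. *Hsd17b7*, whose product reduces estrone and also serves cholesterol synthesis, was at 17.9, 13.5 and 13.7 FPKM in DMSO and at 26.1, 19.4 and 20.9 FPKM in E2, with no overlap. Its log2 fold change was 0.53 (SE 0.04, limma adjusted p = 0.00161), and 0.42 against 4OHT (limma adjusted p = 0.00425). *Hsd17b10*, a mitochondrial dehydrogenase, had a log2 fold change of 0.13 in E2 (limma adjusted p = 0.0427), within a range of 64.6 to 74.9 FPKM. In 4OHT it was 0.11 above DMSO without passing (limma adjusted p = 0.376), and E2 against 4OHT was 0.02 (limma adjusted p = 0.643). The classical estradiol-forming and estradiol-oxidising genes *Hsd17b1* and *Hsd17b2* reached at most 1.04 and 0.375 FPKM and were not tested. Aromatase, *Cyp19a1*, and the estrogen sulfotransferase *Sult1e1* were listed at 0 in all 9 samples (these 4 genes were named after their values were seen).

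In steroid synthesis and reduction, 1 of 4 tested entries rose in E2. *Srd5a1*, a steroid 5-alpha reductase, was at 80.7, 53.9 and 37.9 FPKM in DMSO and at 94.0, 71.2 and 58.4 FPKM in E2, a log2 fold change of 0.41 (limma adjusted p = 0.0212), and was 0.32 above 4OHT (limma adjusted p = 0.0417). The second of 2 entries for *Star*, the mitochondrial cholesterol transporter, was lower in E2 than in 4OHT by a log2 fold change of -0.59 (limma adjusted p = 0.0437). Against DMSO this entry was at -0.18 in E2 and 0.40 in 4OHT, and neither passed (limma adjusted p = 0.415 and 0.376). The other *Star* entry, at 0.778 to 1.16 FPKM, was not tested. *Srd5a3* stayed within 14.9 to 18.5 FPKM. In sulfation and sulfatase activation, 1 of 9 rose, the lysosomal sulfatase *Arsa*, with a log2 fold change of 0.27 against DMSO and 0.24 against 4OHT (limma adjusted p = 0.0251 and 0.0365). *Papss1*, which makes the sulfate donor, and *Arsb* were the most abundant of that list, at 28.7 to 33.3 and 20.7 to 23.3 FPKM, and had no call.

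In catechol and glucuronide conjugation, 0 of 7 tested entries were called in any comparison, with a median log2 fold change of 0.00 for E2 against DMSO, where the median over all tested genes was also 0.00. *Gstp1* and *Gstm1*, glutathione transferases, led this list at 502 to 693 and 93.9 to 124 FPKM. The donors of electrons to P450 enzymes gave 0 calls among 4 tested, with *Cyb5r3* at 139 to 178 FPKM and *Cyb5b* at 92.6 to 111 FPKM.

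Of the partners of the aryl hydrocarbon receptor, all 11 were tested. *Arnt2*, a dimer partner related to Arnt, fell in E2 from 18.1, 17.8 and 20.9 FPKM to 14.4, 15.9 and 17.1 FPKM, a log2 fold change of -0.25 (limma adjusted p = 0.0166), and -0.24 against 4OHT (limma adjusted p = 0.0223). *Arnt* was higher in E2 than in 4OHT by a log2 fold change of 0.15 (limma adjusted p = 0.0344) and did not pass against DMSO. The chaperones *Hsp90ab1* and *Hsp90aa1*, which hold the receptor in the cytoplasm, were at 709 to 869 and 538 to 673 FPKM with no call.

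Of the receptor's other targets, 8 of 10 were tested and 2 rose in E2 against DMSO, where 10.4% of all tested genes were called higher. *Tiparp*, which encodes an ADP-ribosyltransferase that limits receptor activity, was at 8.11, 6.08 and 6.86 FPKM in DMSO, 11.9, 8.88 and 9.40 FPKM in E2, and 7.02, 6.16 and 6.20 FPKM in 4OHT. Its E2 samples exceeded all the others, with a log2 fold change of 0.46 against DMSO and 0.56 against 4OHT (limma adjusted p = 0.00450 and 0.00379). *Lpcat2*, a lysophospholipid acyltransferase, had a log2 fold change of 0.54 against DMSO and 0.45 against 4OHT (limma adjusted p = 0.0221 and 0.0374). The median of the list was -0.07 against DMSO, and *Nfe2l2*, which encodes a factor of the oxidative stress response, stayed within 98.8 to 112 FPKM. For E2 against DMSO the log2 fold change was -0.37 for *Gsta1*, -0.37 for *Gsta2* and -0.19 for *Nqo1*. None of these passed (limma adjusted p = 0.0778, 0.0668 and 0.247). *Cyp1b1* and *Cyp1a1*, given above, had no call in the same comparison.

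Among the elongation partners of *Hsd17b12*, 4 of 9 tested entries rose in E2. They were the elongases *Elovl7* (log2 fold change 0.31, limma adjusted p = 0.00505), *Elovl5* (0.31, limma adjusted p = 0.0133) and *Elovl1* (0.16, limma adjusted p = 0.0366) and the dehydratase *Ptplad2* (0.23, limma adjusted p = 0.0138). *Elovl5*, which extends polyunsaturated fatty acids, was at 40.7, 38.0 and 39.9 FPKM in DMSO and 53.9, 43.6 and 50.9 FPKM in E2. *Elovl7*, *Elovl5* and *Ptplad2* were also higher than in 4OHT, whereas the final reductase of the cycle, *Tecr*, and *Ptplad1* had no call at 138 to 159 and 39.9 to 46.3 FPKM. The list median was 0.10 for E2 against DMSO and 0.05 for 4OHT against DMSO. With the block 10.4% of all tested genes were called higher for E2 against DMSO, and with so few entries the list count is only a description.

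**Figure D4:**
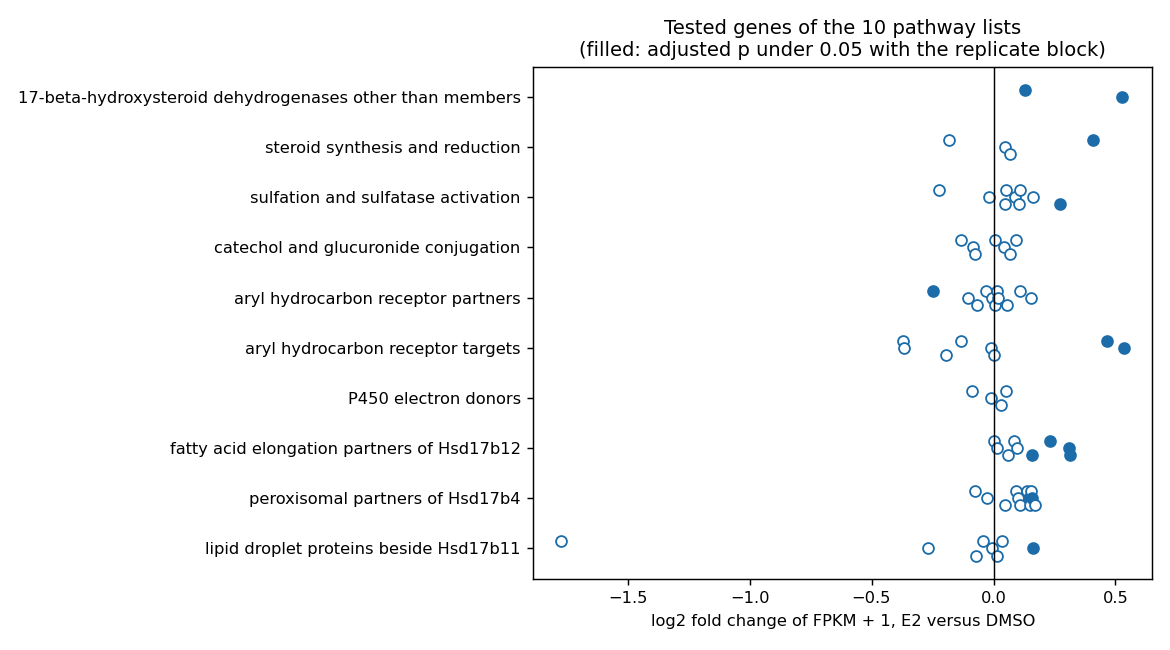
log2 fold change of FPKM + 1 for E2 against DMSO (horizontal axis) of the tested genes of 10 pathway lists, 1 circle per gene; filled circles had a limma adjusted p under 0.05 with replicate number as a block. In the elongation list 4 of 9 circles are filled, from 0.16 to 0.31, and the far left circle is *Plin3*, listed at 0 in E2 replicate 1.

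The peroxisomal partners of *Hsd17b4* had 2 of 12 called in E2, *Scp2* (log2 fold change 0.16, limma adjusted p = 0.0376), the thiolase that acts on branched chains, and the acyl-CoA transporter *Abcd3* (0.15, limma adjusted p = 0.0394), and the list median was 0.12. Against 4OHT, *Scp2* and *Abcd3* did not pass (limma adjusted p = 0.151 and 0.130). Of 8 tested lipid droplet proteins, the lipase activator *Abhd5* was called in E2 (0.16, limma adjusted p = 0.0182), and *Plin2*, the main droplet coat protein here at 104 to 127 FPKM, was not. *Abhd5* was also 0.13 above DMSO in 4OHT, without passing (limma adjusted p = 0.350). Its log2 fold change for E2 against 4OHT was 0.03 (limma adjusted p = 0.507). A joined entry for *Bscl2* and *Hnrnpul2* was at 89.1 to 98.6 FPKM and cannot be split. *Plin3*, another coat protein, was listed at 0 in E2 replicate 1 and 4OHT replicate 2 against 37.4 to 48.3 FPKM elsewhere, and it is one of 266 otherwise expressed genes in the table with such a zero.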

How the data were processed

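RNA from 9 samples was sequenced as directional 50 bp single-end mRNA libraries, aligned to mm10 with TopHat 2.0.8b, and quantified with Cufflinks and Cuffdiff 2.1.1 on a UCSC annotation. The deposited FPKM values were used unchanged, and any further scaling between libraries is not given in the sources used here. Counts were not part of the files, so count tests were not run, and from these files depth was recovered only in relative terms. The 9 members and the pathway lists were chosen with earlier results of these data known.

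The main fit was limma 3.58.1 (R 4.3.3; trend, two-sided) on log2(FPKM + 1) over all 9 samples, for 11339 entries with at least 1 FPKM in at least 3 samples, with Benjamini-Hochberg adjustment and a threshold of 0.05, first tested on simulated data. Replicate numbers come from the labels. Deviations of same-numbered samples correlated at 0.0528 to 0.293 over 9 pairs of samples, and at 0.523 to 0.828 over the 11094 entries with no listed 0, so a fit with replicate number as a block is given beside the main one. This pairing rests on the numbers and on those correlations, not on a stated shared culture. Named from each list were calls (at most the 4 largest per comparison) and the 2 most abundant genes, and for each tested member the 3 most similar profiles. An abundant gene that this rule would name is not reported here. Coordinates are from GENCODE (GRCm38) and promoter windows, found for 6 of 9 members, from RefSeq. *Ahr*, *Hsd17b4* and *Sts* had no window.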

Additional observations from a re-analysis of the deposited data

How the results depend on the processing

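Without the replicate block 0 members were called in each comparison. For E2 against DMSO the count became 2 with the replicate block, 2 with the block and median-ratio scaling, 2 with the block and otherwise expressed zeros set as missing, and 1 without replicate 1 of every condition. For E2 against 4OHT these settings gave 1, 1, 2 and 1. Leaving out 1 sample at a time gave 0 members in each comparison without the block, and with it 1 to 2 for E2 against DMSO and 1 to 1 for E2 against 4OHT. For 4OHT against DMSO the member count stayed at 0 in each setting run. At an unadjusted p under 0.05, limma gave 0 of 5 members and 2.76% of all tested genes without the block, and 1 of 5 members (*Hsd17b11*) and 13.1% with it. *Hsd17b11* was called in 12 of 12 fits with the block in both E2 comparisons. Without the block it was called in 1 of 19 in each, the fit without replicate 1 of every condition. With the block *Hsd17b12* was called in 4 of 12 fits for E2 against DMSO, and *Cyp1b1* in 1 of 12 for E2 against 4OHT. No called value changed sign. Over all tested genes, 58 were called for E2 against DMSO without the block and 1702 with it, and the smallest counts with 1 sample left out, DMSO replicate 3 in both, were 8 and 534. The pathway lists had 14 calls for E2 against DMSO with the block, 18 when zeros were also set as missing, and 3 (without DMSO replicate 3) to 12 (without E2 replicate 1) when 1 sample was left out. Without replicate 1 of every condition and with no block there were 2. Upper-quartile and median-ratio scaling, a pseudocount of 0.1, no filter, a threshold of 0.01 and a fit of only the samples compared left the member counts at 0 without the block. The alternatives without 1 replicate number of every condition, the block with scaling and the block with 1 sample left out were chosen after seeing the data. The count tests were not run because the values are FPKM. *Sult1a1*, *Ahrr* and *Cyp1a1* fell short of the filter and were fitted only with no filter and no block. *Sult1a1* and *Ahrr* held too few reads for a fold between treatments to be read from them.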

Other observations

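Levels of some other listed genes also differed by replicate number, in orders that differed from gene to gene. *Nqo1*, a quinone reductase and target of the aryl hydrocarbon receptor, was highest in replicate 2 of each condition, at 4.77, 5.24 and 5.36 FPKM in DMSO, E2 and 4OHT against 2.64, 1.72 and 2.37 FPKM in replicate 1, whereas *Ahr*, *Cyp1a1* and *Cyp1b1* were highest in replicate 3. *Gsta1*, a glutathione transferase, was likewise highest in replicate 2, at 7.41, 7.07 and 7.60 FPKM against 3.01, 1.61 and 3.01 FPKM in replicate 1. *Col1a1*, a collagen gene of the stromal marker list and not of these pathways, was highest in replicate 3, at 6.73, 4.57 and 5.24 FPKM against 1.84, 2.15 and 1.95 FPKM in replicate 1. These genes were named after their values were seen, and no comparison of the design bears on replicate number.

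*Esr1*, which encodes the estrogen receptor, was at 12.4 FPKM in DMSO replicate 1 and 5.98 FPKM in replicate 2, close to replicate 3, at 16.3, 9.32 and 8.31 FPKM in E2, and 11.2, 5.25 and 5.40 FPKM in 4OHT, so that replicate 1 was the highest of each condition, as for *Hsd17b11*. With the block its log2 fold change was 0.45 for E2 against DMSO (limma adjusted p = 0.00424, against 0.690 without the block), with E2 higher in 3 of 3 pairs. What set replicate 1 apart was not tested.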
